A study of Caenorhabditis elegans with 2 samples.

Results

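Chromatin immunoprecipitation and sequencing (ChIP-seq) peaks of LIN-32 were examined at 10 Caenorhabditis elegans genes that encode Wnt ligands and Wnt receptors, out of 19973 nuclear protein-coding genes. The ligand genes were egl-20, lin-44, cwn-1 and cwn-2, the Frizzled receptor genes were lin-17, mom-5, mig-1 and cfz-2, and the other receptor genes were cam-1 (Ror) and lin-18 (Ryk). The genes were chosen by family, but with measured values in view: lin-17 was selected on its peak signal, among the highest of all peaks, so its rank is a description and carries no test. A peak was given to a gene when its summit lay between 5 kb upstream of the annotated 5′ end and the 3′ end, and a peak in such a window need not act on that gene. LIN-32 is a proneural basic helix-loop-helix protein of the Atonal family, and here it carried C-terminal TY1, EGFP and 3xFLAG tags. All animals were of strain OP740, in which the transgene wgIs740 also carries unc-119(+) in the unc-119 (tm4063) mutant background. The 2 samples were biological replicates of 1 group of whole mixed-stage embryos, both sexes together, released by egg bleaching and labelled as 3 h of age, and no second condition was compared. Whole embryos mix all cell types, so the lists do not say in which cells a site was bound.

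Wnt ligands are secreted lipid-modified proteins that bind Frizzled receptors on neighbouring cells, and signalling passes through Dishevelled to beta-catenin and TCF or to the planar polarity branch. In C. elegans this system polarises dividing cells, directs migrating neuroblasts such as the Q cells and their descendants, and sets the direction of axons. LIN-17 and its ligand LIN-44 are known for the asymmetric divisions of tail cells, MOM-5 for the early embryo, MIG-1 and CFZ-2 for neuronal migration and axon growth, and CAM-1 and LIN-18 for receptor roles beside the Frizzled proteins.

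The lin-17 window held by far the highest signal of the 10 genes, and the Frizzled gene cfz-2 and the Ror gene cam-1 came next by pooled rank. Of the 10 genes, 2, lin-17 and cfz-2, had a peak of the deposited irreproducible discovery rate (IDR) set, where 7.73% of all genes had one. A pooled peak matched by a summit of each replicate within 100 bp lay in the windows of 6 genes, against 40.9% of all genes. A peak among the 2000 strongest of the pooled list lay in the windows of 4 genes, lin-17, cfz-2, cam-1 and mom-5, against 13.8% of all genes. All 4 Frizzled genes had a peak matched in both replicates, while 1 of 4 ligand genes and 1 of 2 other receptor genes did. That contrast moved with the settings: with 10 kb upstream, cwn-2 and egl-20 joined, for 8 genes in all and 3 of 4 ligand genes. With replicate peaks limited to the 5000 strongest, 4 genes remained, cam-1, cfz-2, lin-17 and mom-5, so mig-1 and cwn-1 dropped out. Window length differed between genes, and longer windows held more pooled peaks, a median of 4 at 13 to 20 kb and 2 at 7 to 10 kb. Of the 1105 genes with windows of 13 to 20 kb, 15.3% had an IDR peak and 66.9% a peak matched in both replicates. The 3 genes of that length here were lin-17, mig-1 and cam-1, of which 1 had an IDR peak and 3 a peak matched in both replicates. Of the 6883 genes with windows of 7 to 10 kb, the shares were 7.86% and 43.2%, and the other 7 genes counted 1 and 3.

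The peak lists held 30000 entries for replicate 1, 22618 for replicate 2, 26004 for both replicates called together and 1042 for the IDR set. The list of both replicates is labelled as peaks and background for input to IDR, so an entry need not be a confident peak. The −log10 q-value of the strongest pooled entry was 2.95 at lin-17, 2.08 at cfz-2, 1.35 at cam-1 and 1.17 at mom-5. It was 0.504 at mig-1, 0.359 at cwn-1, 0.205 at lin-18, 0.0413 at egl-20 and 0.0217 at cwn-2. The signal is the authors' value for each peak, on a scale that is not stated, and it served to rank peaks within a list and not to compare levels between lists of different length. The IDR set was the same as the 1042 highest signals of the pooled list, down to 92.4, and the next pooled peak had 92.3. Membership of the IDR set therefore cannot be told apart here from a high pooled signal, and whether IDR scores chose it is not stated. Of its peaks, 96.6% were matched in both replicates. Read depth behind the peaks is unknown, and the exact binomial intervals given for shares cover counting error over peaks only.

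**Figure D1:**
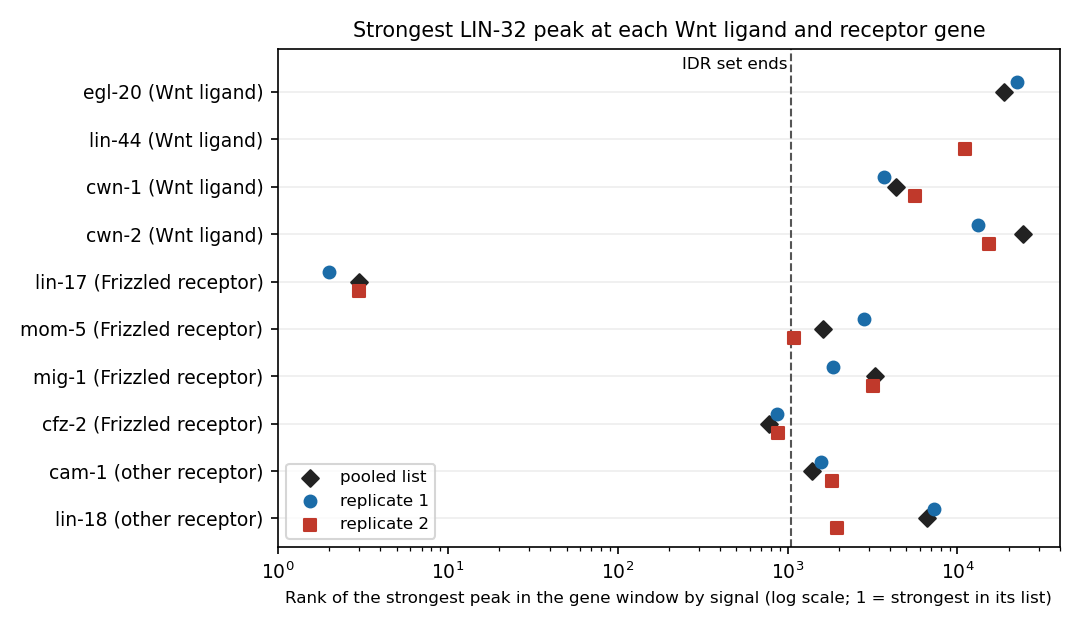
Rank of the strongest peak in the window of each of the 10 genes (log axis, rank 1 is the highest signal) in the pooled list and in each replicate list, with the end of the IDR set at pooled rank 1042 marked. The points of lin-17 lie at ranks 2 to 3 in all 3 lists, those of cfz-2 at 781 to 877, and lin-44 had a peak in replicate 2 alone.

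Among the ligand genes, which encode the secreted signals, no window held an IDR peak or a peak among the 2000 strongest. Their 4 windows, 31.5 kb in all, held 6 pooled peaks, of which 1 was matched in both replicates. That peak lay 434 bp upstream of cwn-1 (WBGene00000857, chromosome II 130983-133598, minus strand), inside the non-coding gene K10B4.8, with a pooled signal of 56.2 at rank 4319. It had rank 3714 in replicate 1 and rank 12798 in replicate 2. The other 3 cwn-1 peaks were matched in 1 replicate each, and 2 of them lay in exons of the neighbouring gene K10B4.1. The gene egl-20 (WBGene00001188, chromosome IV 9812357-9815532, minus strand), whose product steers the Q neuroblasts, had 1 pooled peak, in an exon, at rank 18803 and matched in neither replicate. The gene cwn-2 (WBGene00000858, chromosome IV 10067816-10070251, plus strand) had 1 pooled peak at rank 24144, matched in replicate 1 alone and nearer to the 5′ end of ipla-7. No pooled peak lay in the window of lin-44 (WBGene00003029, chromosome I 4126056-4129310, plus strand), which had a single replicate 2 peak 622 bp into the gene at rank 11039. Farther upstream than the 5 kb limit, egl-20 had a peak matched in both replicates 7371 bp upstream at rank 2864 and cwn-2 had one 9643 bp upstream at rank 7038.

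The gene lin-17 (WBGene00003006, chromosome I 2706883-2717549, plus strand) encodes a Frizzled receptor and held the peak of rank 3 in the pooled list. The peak spanned 2710799 to 2711136 on WBcel235 with its summit at 2710951, 4068 bp downstream of the gene's first 5′ end. Its signal was 777 in the pooled list, 401 in replicate 1, where it ranked 2, and 377 in replicate 2, where it ranked 3. The replicate summits lay 0 bp and 4 bp from the pooled summit. Its −log10 q-value in the pooled list was 2.95, the highest there, which 451 peaks shared. Only 7 genes of 19973, lin-17 among them, had a window peak of that pooled rank or better. The next strongest signal in the 10 windows, at cfz-2, was 106, so the lin-17 peak exceeded it 7.34-fold on the authors' scale.

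The lin-17 summit lay in a 1054-bp intron, 884 bp from the intron's 5′ end. This is intron 3 of 8 in transcripts Y71F9B.5a.1 and Y71F9B.5b.1, intron 4 of 9 in Y71F9B.5a.2 and intron 1 of 6 in the shorter Y71F9B.5c.1, whose 5′ end lies 998 bp upstream of the summit. The nearest neighbouring genes, F32B5.1 and dnj-30, lay 8793 bp and 7076 bp from the summit. Within 50 bp of the summit were 3 E-boxes (CANNTG, the hexamer class bound by basic helix-loop-helix dimers): CAGCTG 28 bp to the left, CACCTG 41 bp to the left, and CACCTG on the opposite strand 33 bp to the right. A window with 3 or more E-boxes was found at 6.05% of IDR peaks and 1.68% of pooled peaks. The combination of CAGCTG with at least 2 CACCTG, picked after the lin-17 sequence was seen, occurred at 1 of 1042 IDR peaks, lin-17 itself, and at 4 of 26004 pooled peaks.

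The other 5 pooled peaks of lin-17 were far weaker. An exonic peak 7293 bp from the 5′ end had a signal of 69.8 at rank 2055, with rank 811 in replicate 1 and rank 16027 in replicate 2, and the 2 replicate summits lay 126 bp apart. A peak 2817 bp into the gene, 253 bp before the start of an inner transcript, had rank 5950 and was matched at ranks 7580 and 7706. A peak 1037 bp upstream was matched in replicate 2 alone, at rank 1758. The remaining pair lay 3016 bp and 5583 bp into the gene at ranks 21597 and 22335, matched in replicate 1 alone and in neither replicate. Only 1 of the 6 lin-17 peaks was in the IDR set.

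**Figure D2:**
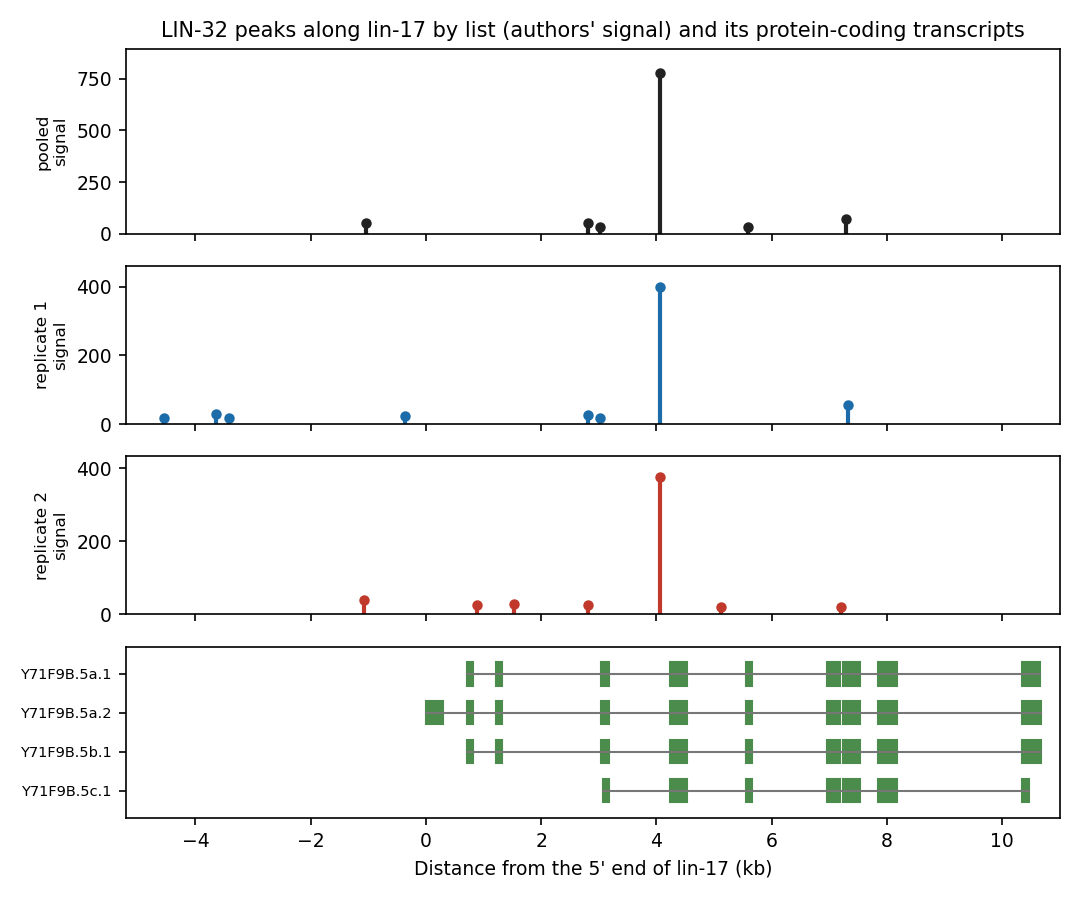
Peaks of lin-17 in the pooled list and in each replicate list, above the exons of its protein-coding transcripts. The horizontal axis is distance from the gene's 5′ end (kb) and the vertical axis is signal (authors' scale). In the pooled list, the intronic peak at 4068 bp has a signal of 777 and the other 5 lie at or below 69.8.

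The gene mom-5 (WBGene00003397, chromosome I 9965574-9970037, plus strand), the Frizzled receptor of the early embryo, had its strongest peak in the promoter, 767 bp before the gene's start. Its signal was 76.0 at pooled rank 1622, with ranks 2821 and 1596 in the replicates, and no E-box lay within 50 bp. An exonic mom-5 peak at 3854 bp ranked 1089 in replicate 2, yet the nearest replicate 1 summit lay 2794 bp from the pooled summit, and its pooled rank was 4463. The nearest coding 5′ end to that peak was that of tsp-7, and only 1 of the 4 mom-5 peaks lay nearest to mom-5. The gene mig-1 (WBGene00003238, chromosome I 948569-957456, minus strand), a Frizzled receptor of migrating neuroblasts, had 8 pooled peaks, of which 4 were matched in both replicates. The strongest lay 2617 bp upstream with a signal of 60.9 at rank 3248, matched at ranks 7155 and 6644, and carried CAGATG and CAAGTG. The 4099-bp first intron of mig-1 held 3 further peaks, 1 of them matched in both replicates. The pooled ranks of the mig-1 peaks ran from 3248 to 13635.

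**Figure D3:**
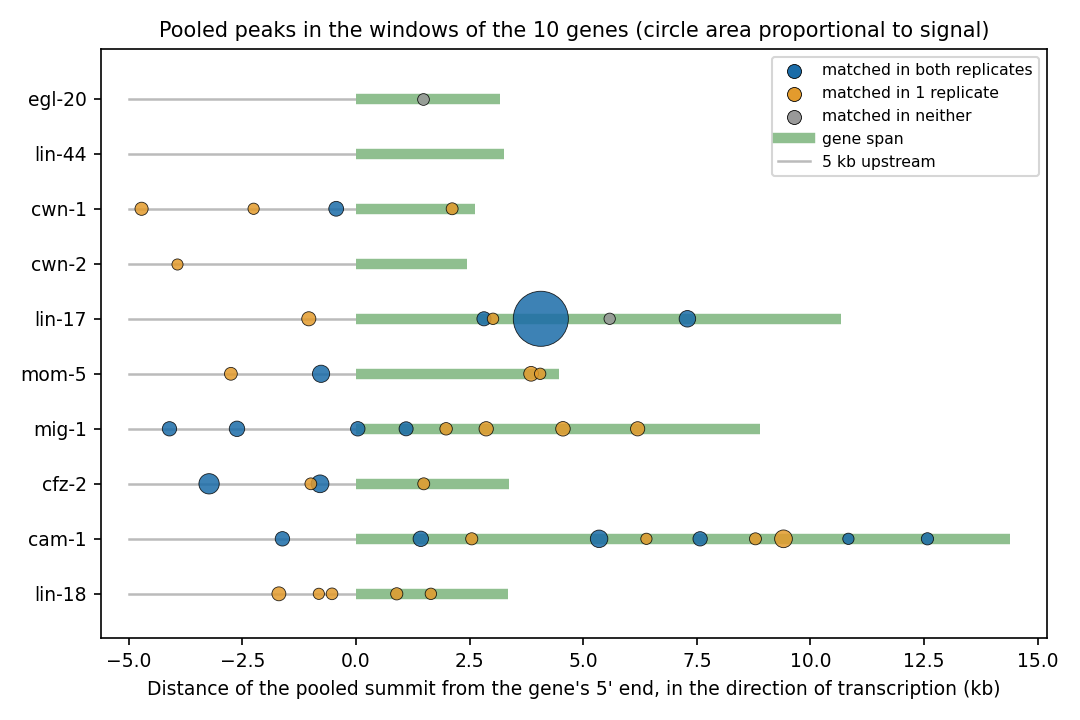
Pooled peaks in the windows of the 10 genes, by distance of the summit from the gene's 5′ end in the direction of transcription (kb). Circle area is proportional to signal and colour gives the number of replicates with a summit within 100 bp. The lin-17 circle in its intron stands apart in size. Both replicates matched 1 of 6 peaks of the ligand genes, 10 of 22 of the Frizzled genes and 6 of 15 of the other receptors. Of all pooled peaks, 28.8% were so matched.

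The gene cfz-2 (WBGene00000478, chromosome V 3441504-3444877, minus strand), a Frizzled receptor of migrating neurons, held the other IDR peak. Its summit at 3448108 lay 3231 bp before the gene's 5′ end, outside promoters, exons and introns of coding genes. The signal was 106 in the pooled list at rank 781, 53.5 in replicate 1 at rank 861, and 52.6 in replicate 2 at rank 877. The next coding gene on the other side, slc-28.2, began 12111 bp away. A promoter peak 789 bp upstream, with a signal of 80.6 at rank 1377, was matched at ranks 2951 and 1978, and for each of these peaks the replicate summits lay 6 bp apart. The 101-bp windows around both summits are shown because neither holds an E-box, unlike the lin-17 summit. Such absence is common, since any E-box lay at 38.7% of all pooled peaks and 59.5% of IDR peaks. They are written 5′ to 3′ on the plus strand of WBcel235, with any E-box in capitals.
cfz-2 IDR peak, chrV:3448058-3448158: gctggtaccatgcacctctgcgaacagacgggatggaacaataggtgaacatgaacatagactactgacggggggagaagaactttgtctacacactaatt
cfz-2 promoter peak, chrV:3445616-3445716: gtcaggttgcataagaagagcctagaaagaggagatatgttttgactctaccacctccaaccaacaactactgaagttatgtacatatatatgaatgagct
Further upstream, 5180 bp from the 5′ end and so just outside the window, lay another peak at rank 1351 with a signal of 81.3, matched in 1 replicate. From 5 to 10 kb upstream there were 3 pooled peaks, 2 of them matched in both replicates, and the best rank among the 3 was 1327.

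The gene cam-1 (WBGene00000289, chromosome II 9295915-9310304, minus strand) encodes the Ror receptor and had 10 pooled peaks in the longest window, 6 of them matched in both replicates. Its 2 strongest peaks fell outside the IDR set, which ended at rank 1042. The peak at 9407 bp, in the 4766-bp intron 3 of transcript C01G6.8a.1, had a signal of 80.4 at rank 1390 and was matched in replicate 2 at rank 1817, while the nearest replicate 1 summit lay 116 bp away. The peak at 5350 bp had a signal of 78.4 at rank 1486, was matched at ranks 1579 and 2055, and lay 101 bp before the start of an inner transcript, within the 5402-bp first intron of C01G6.8a.1. Another peak, at 1427 bp in that first intron, had a signal of 60.7 at rank 3286 and was matched at ranks 5105 and 14403. The gene lin-18 (WBGene00003007, chromosome X 3958552-3961907, plus strand) encodes the Ryk receptor and had 5 pooled peaks, each matched in 1 replicate only. The strongest lay 1695 bp upstream with a signal of 49.7 at rank 6628 and was matched in replicate 2 at rank 1961. An intronic lin-18 peak at rank 15279 had CAGCTG 2 bp from its summit, so the hexamer seen at lin-17 also lay at a weak peak. The cam-1 and lin-18 windows are shown for their E-boxes, and the last of the cam-1 windows for its run of GA repeats. The E-boxes in the cam-1 windows were neither CAGATG nor CAGCTG.
cam-1 peak of rank 1390, chrII:9300847-9300947: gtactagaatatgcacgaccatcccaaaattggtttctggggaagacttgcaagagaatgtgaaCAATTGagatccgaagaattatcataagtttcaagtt
cam-1 peak of rank 1486, chrII:9304904-9305004: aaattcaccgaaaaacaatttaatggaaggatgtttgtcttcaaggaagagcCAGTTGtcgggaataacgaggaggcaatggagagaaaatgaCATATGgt
cam-1 peak of rank 3286, chrII:9308827-9308927: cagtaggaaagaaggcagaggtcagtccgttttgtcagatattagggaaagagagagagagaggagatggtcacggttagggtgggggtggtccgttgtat
lin-18 peak of rank 15279, chrX:3959400-3959500: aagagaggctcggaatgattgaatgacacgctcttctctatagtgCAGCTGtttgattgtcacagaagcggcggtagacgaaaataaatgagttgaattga

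**Figure D4:**
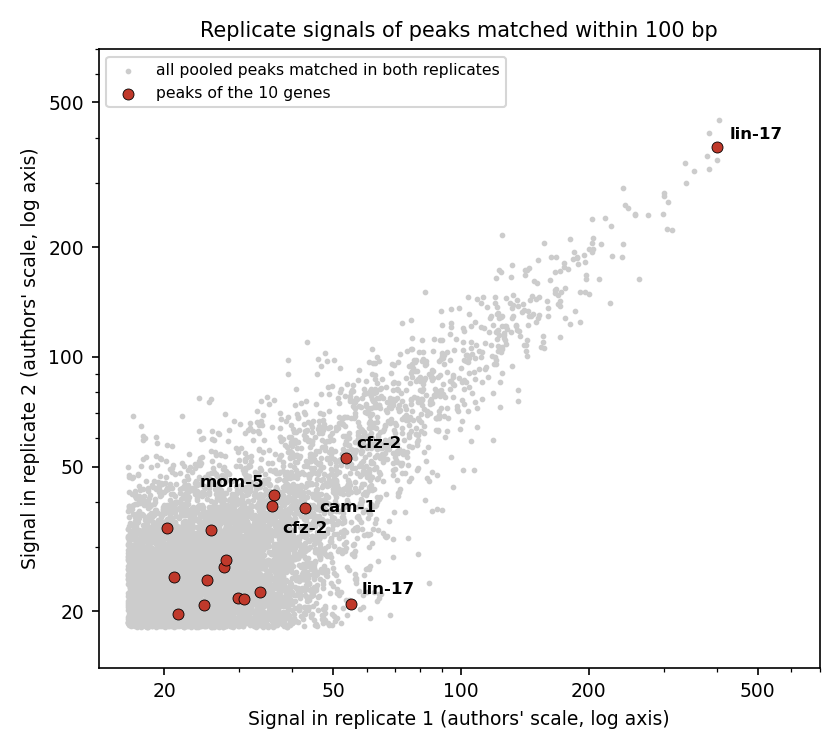
Signal in replicate 1 against replicate 2 (authors' scale, log axes) for pooled peaks with a summit of each replicate within 100 bp, with peaks of the 10 genes in red and the strongest 6 named. The intronic lin-17 peak lies at 401 and 377, the IDR peak of cfz-2 at 53.5 and 52.6, and the exonic lin-17 peak at 55.0 and 20.9.

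Over all 43 pooled peaks of the 10 windows, 17 were matched in both replicates, or 39.5% (95% exact binomial interval 25 to 55.6), against 28.8% of all pooled peaks. In exactly 1 replicate 24 were matched, and 2 were matched in neither. Of the 4 peaks at pooled ranks above 1000 and up to 2000, 3 were matched in both replicates, where 84.3% of all peaks of those ranks were. Introns held 13 of the 43 peaks, or 30.2% (17.2 to 46.1), against 22.8% of all pooled peaks. Promoters, taken as 1000 bp before and 200 bp after each coding 5′ end, held 12, or 27.9% (15.3 to 43.7), against 30.6%. Exons held 11, or 25.6% (13.5 to 41.2), against 25.9%. These intervals include the shares of all pooled peaks. They treat the peaks of 1 gene as independent, and a difference in placement was not tested. Among all IDR peaks, introns held 23.4%, promoters 42.9% and exons 3.74%, the last outside the exon interval. Only 2 of the 43 peaks were in the IDR set, and exons held 26.8% of pooled peaks outside that set. No peak of the 10 genes lay within 500 bp of a tRNA gene, which allows a share of up to 8.22%, and 1.63% of all pooled peaks did.

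An Atonal-type hexamer (CAGATG or CAGCTG, either strand) lay within 50 bp of 3 of the 43 summits, at lin-17, mig-1 and lin-18, or 6.98% (1.46 to 19.1). The share was 6.98% in flanking windows 500 bp away, 10.03% at all pooled peaks and 31.3% at IDR peaks. The letters GAGAGA, on either strand and searched after the sequences were seen, lay at 8 of the 43 summits, or 18.6% (8.39 to 33.4), and in 3.49% of their flanks. They lay at 9.79% of all pooled peaks and 20.9% of IDR peaks. A match is a description of the letters and not a site.

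The other genes of the Wnt pathway were taken from a list of 36, made with earlier results of these data known. IDR peaks lay in the windows of 15 of them, or 41.7%, beside 7.73% of all genes and 2 of the 10 ligand and receptor genes. For 10 of the 36 the gene also had the nearest coding 5′ end to such a peak, which held for 3.91% of all genes. The median window of the 36 genes was 9778 bp, against 7027 bp for all genes. By role, an IDR peak lay in the windows of all 3 planar polarity genes, 3 of 4 beta-catenin genes, 3 of 4 nuclear and kinase genes, 2 of 3 Dishevelled genes, 1 of 5 destruction complex genes, 1 of 7 secretion and extracellular genes and 1 of 9 target genes. The ligand gene mom-2, which signals in the early embryo, had one as well, in an intron at rank 335 with a signal of 158, unlike the 4 ligand genes above.

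Within the planar polarity group, the intron of fmi-1, the Flamingo cadherin, had a signal of 317 at rank 68. The promoter of vang-1, the Van Gogh gene, had 141 at rank 436, and prkl-1, the Prickle gene, had 110 at rank 714, 1549 bp upstream. An exon of dsh-1, a Dishevelled gene, had 246 at rank 140, and the promoter of mig-5, also a Dishevelled gene, had 141 at rank 434. Among beta-catenin genes, wrm-1 had 175 at rank 278, 1835 bp upstream. The peaks of hmp-2 (165, rank 319) and sys-1 (143, rank 418) lay nearest to the 5′ ends of K05C4.7 and his-67. The TCF gene pop-1 had an intronic peak of 99.5 at rank 890, which ranked 6226 in replicate 1 and 532 in replicate 2. The kinase gene lit-1 had an intronic peak of 122 at rank 595. The kinase gene mom-4 had the strongest of all 21 distinct peaks, 520 at rank 17 and 3334 bp upstream, but nearest to the 5′ end of lsl-1. The peak of mom-1, the Porcupine gene, had 246 at rank 141 and lay beside a tRNA gene and nearer to lev-9. The APC-related gene apr-1 had 92.6 at rank 1039, nearest to K04G2.7, and the GATA factor gene egl-18 had an intronic peak of 203 at rank 209. None of these 36 genes had a peak of a higher signal than the lin-17 peak.

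**Figure D5:**
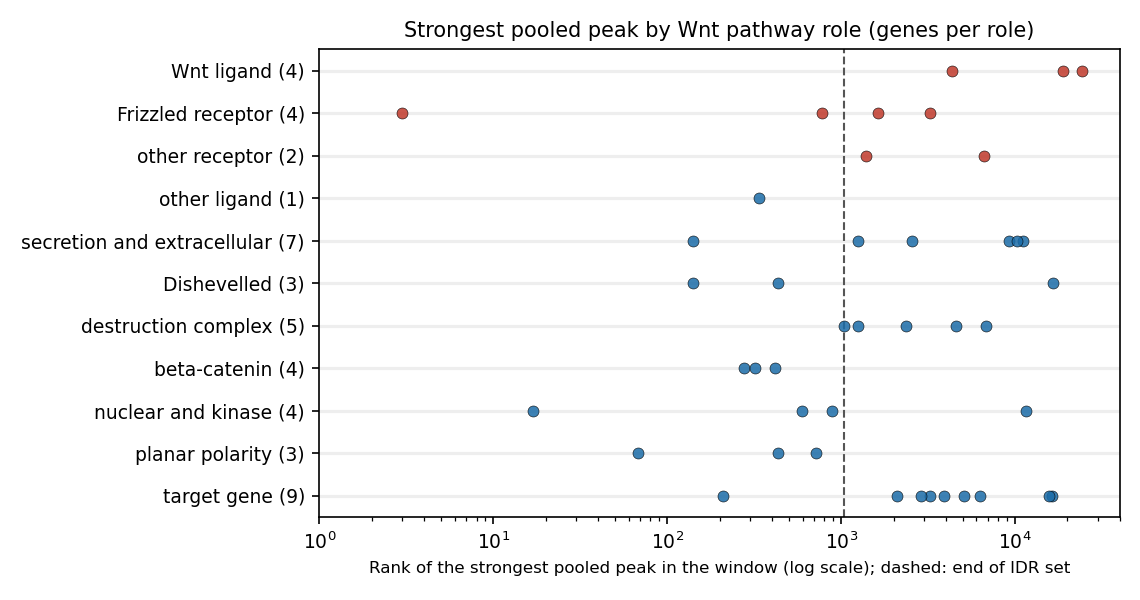
Rank of the strongest pooled peak in the window of each gene (log axis), by role, for the 10 ligand and receptor genes (red) and the 36 other pathway genes (blue), with the number of genes per role and the end of the IDR set (rank 1042) as a dashed line. Genes with no pooled peak (lin-44, sfrp-1 and bar-1) are not plotted, lin-17 lies farthest left at rank 3, and mom-4 is next at rank 17.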

How the data were processed

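LIN-32 ChIP-seq peaks came from 4 lists deposited by the authors. Per the deposited notes, 3 lists (each replicate, and both together) were called with 1 shared control alignment, and the IDR list was made from them. The values used were the authors' peak signal and the deposited −log10 q-value. The build is ce11 per the labels, with the coordinates of WBcel235, and genes are those of Ensembl release 115. For the aligner, caller and IDR threshold, names were not given in the sources used here, and reads and tracks were not analysed here. There were 0 value columns without a sample.

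Summits were ranked by signal among nuclear peaks (22601 of replicate 2) and matched between lists within 100 bp. Each was classed as promoter (1000 bp upstream to 200 bp downstream of a coding 5′ end), exon, intron or outside, in that order. E-boxes were sought within 50 bp and in flanks 500 bp away. Shares carry exact (Clopper-Pearson) 95% intervals, and no test between groups was run, since the 2 samples form 1 group. The 10 genes and the pathway list were chosen with earlier results of these data known. All 10 genes are named, and of the 36 pathway genes those with an IDR peak. The code that gives summits to windows was checked on simulated summits planted inside gene windows, and 200 of 200 were found. That check covers the code only and not which gene a peak acts on. Alternatives covered the window, nearest 5′ ends, matching distance, promoter and E-box windows, and each replicate alone. Python 3.11.15 was used with numpy 2.4.6, pandas 2.3.3, scipy 1.17.1 and matplotlib 3.10.9.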

Additional observations from a re-analysis of the deposited data

How the results depend on the processing

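The lin-17 peak was counted under all 8 alternatives of the IDR count and the cfz-2 peak under 5. With 2 kb upstream, with the gene span only, or with the IDR list cut to its stronger part at the median signal, 1 of the 10 genes had an IDR peak, lin-17, against 1021, 350 and 825 of all genes. With 10 kb upstream all genes counted 2334, and by nearest 5′ end 780. Each replicate alone, with as many of its strongest peaks, gave 2 of the 10 genes and 1543 to 1561 of all genes. A peak matched in both replicates lay in 3 genes within gene spans only, in 8 with 10 kb upstream and in 4 with replicate peaks among the 5000 strongest. The lin-17 peak ranked 2 without replicate 2 and 3 without replicate 1, and 5 among all replicate 2 peaks when mitochondrial ones, added after seeing the data, were kept. The promoter share of the 43 peaks was 13.95% with a narrower and 44.2% with a wider promoter. The share with an Atonal-type hexamer was 2.33% within 25 bp of the summit and 16.3% within 100 bp. Around the replicate summits of matched peaks it was 17.2% in replicate 1 and 10.3% in replicate 2. Among the 36 pathway genes, the alternatives chosen after seeing the data gave counts of 12 (2 kb upstream), 7 (gene span), 10 (nearest 5′ end), 11 (stronger part) and 15 (each replicate alone). The number of peaks, 43, limits every share, and read depth is unknown. No paired analysis was possible because the replicates form a single group.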
